A study of Mus musculus with 12 samples.

Results

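The unfolded protein response and the integrated stress response were followed through 30 genes, taken by symbol from a list of known members of these pathways. All 30 were among the 16703 genes of the whole-liver table and among the 16273 genes of the table of liver sinusoidal endothelial cells (LSEC), the fenestrated lining of the liver's small vessels. They were sorted by role into 14 endoplasmic reticulum (ER) chaperones and folding enzymes, 4 sensors and their transcription factors, 8 genes of the Atf4/Ddit3 branch, and 4 genes of ER-associated degradation.

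The study compared C57BL/6 mice on chow with mice given a NASH diet, which the labels name as D09100301 and which models non-alcoholic steatohepatitis. A feeding time of 36 weeks is attached to every sample, chow included, so the time on chow is not separately stated. Each of the 4 groups had 3 RNA-seq libraries: liver chow, liver NASH, LSEC chow and LSEC NASH. LSEC were taken from non-parenchymal cells by removing CD11b+ cells and then pulling down CD146+ cells on magnetic beads, a step that does not exclude other CD146+ cells. The labels do not say that each library came from its own mouse, so p-values measure the spread between these libraries, which may be technical. The labels name no allele, transgene, age or sex.

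The ER folds secreted and membrane proteins, and the hepatocyte is among the most active secretory cells of the body. When unfolded protein builds up, the sensors Ire1 (Ern1), Perk (Eif2ak3) and Atf6 leave the chaperone Bip (Hspa5). Ire1 splices Xbp1 mRNA and Atf6 is cut to a soluble factor, and both raise chaperone and degradation genes, while Perk phosphorylates eIF2alpha, which slows translation but favours that of Atf4. Other kinases reach eIF2alpha without ER stress, for example on amino acid shortage, so Atf4 and its targets Ddit3, Chac1, Trib3 and Asns can move apart from the chaperones.

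The promoters were searched for the elements through which these factors act. RefSeq promoter windows of GRCm38.p6, from 250 bases before to 50 after the start, were found for 27 of the 30 genes. The ER stress element (ERSE), the site read by Atf6 together with NF-Y, was searched on both strands as CCAAT, any 9 bases and CCACG. It was in 7 of 12 chaperone windows and 1 of 4 degradation windows, in none of 8 branch windows or 3 sensor windows, and in 0.119% of all 32851 windows. The 8-base core of the C/EBP-ATF composite element (CARE), where Atf4 binds, was searched on both strands as TGATGNAA and was in 4 of 8 branch windows, in 1 degradation window (Herpud1), in no chaperone window, and in 3.97% of all windows. ERSE-II, searched on both strands as ATTGG, any base and CCACG, was in the windows of Herpud1 and of Dnajb11, where it lay just after the start, against 0.0365% of all windows. A match is a description of the letters, not a site of binding or a cause. Positions count from the RefSeq start, and the Hspa5 match lies after the earlier GENCODE M21 start of that gene. The matched ERSE letters are shown 5′ to 3′ on the strand of the motif, with the fixed letters in capitals, because these chaperones are the group compared below.
Hspa5 ERSE, 65 bases before the start: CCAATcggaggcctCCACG
Hsp90b1 ERSE, 212 bases before the start: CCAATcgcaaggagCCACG
Hsp90b1 ERSE, 107 bases before the start: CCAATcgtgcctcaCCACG
Calr ERSE, 162 bases before the start: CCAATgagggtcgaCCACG
Canx ERSE, 145 bases before the start: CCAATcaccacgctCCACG
Pdia6 ERSE, 98 bases before the start: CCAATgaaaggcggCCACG
Dnajc3 ERSE, 105 bases before the start: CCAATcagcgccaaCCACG
Creld2 ERSE, 126 bases before the start: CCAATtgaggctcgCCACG
Derl3 ERSE, 156 bases before the start: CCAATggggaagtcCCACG

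Upstream sequence is given in full for 4 members that stand for different behaviour below: Creld2 from the chaperones, Chac1 from the branch, and Herpud1 and Derl3 from degradation. Each runs 5′ to 3′ on the + strand of GRCm38.p6, which is also the gene's strand, ends before the start and before the earliest exon of GENCODE M21, and has the fixed motif letters in capitals. The positions are chr15:88819396-88819645 for Creld2, chr2:119350992-119351228 for Chac1, chr8:94386179-94386428 for Herpud1 and chr10:75893148-75893397 for Derl3. Creld2 and Derl3 carry an ERSE on the opposite strand, so the printed letters are its reverse complement. Chac1 carries a CARE core on the opposite strand, and Herpud1 carries a CARE core on the opposite strand and an ERSE-II on the printed strand.
Creld2: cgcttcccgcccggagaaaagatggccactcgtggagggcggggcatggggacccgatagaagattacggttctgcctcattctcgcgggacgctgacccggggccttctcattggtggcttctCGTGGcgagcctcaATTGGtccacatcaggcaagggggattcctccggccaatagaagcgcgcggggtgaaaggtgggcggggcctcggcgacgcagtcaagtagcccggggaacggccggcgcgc
Chac1: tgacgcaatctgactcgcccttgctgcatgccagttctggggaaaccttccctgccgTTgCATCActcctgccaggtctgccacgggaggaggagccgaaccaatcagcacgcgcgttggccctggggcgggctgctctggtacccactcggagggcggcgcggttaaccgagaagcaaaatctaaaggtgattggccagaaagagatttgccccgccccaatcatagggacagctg
Herpud1: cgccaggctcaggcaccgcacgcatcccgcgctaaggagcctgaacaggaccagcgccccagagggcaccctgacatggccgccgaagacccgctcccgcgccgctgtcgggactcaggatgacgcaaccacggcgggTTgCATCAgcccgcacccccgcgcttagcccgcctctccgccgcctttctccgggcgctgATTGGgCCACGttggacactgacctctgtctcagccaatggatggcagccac
Derl3: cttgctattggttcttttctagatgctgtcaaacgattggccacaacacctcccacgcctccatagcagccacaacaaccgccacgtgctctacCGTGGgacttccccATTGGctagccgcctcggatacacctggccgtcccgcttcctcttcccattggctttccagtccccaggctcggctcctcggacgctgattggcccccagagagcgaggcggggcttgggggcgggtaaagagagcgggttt

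**Figure D1:**
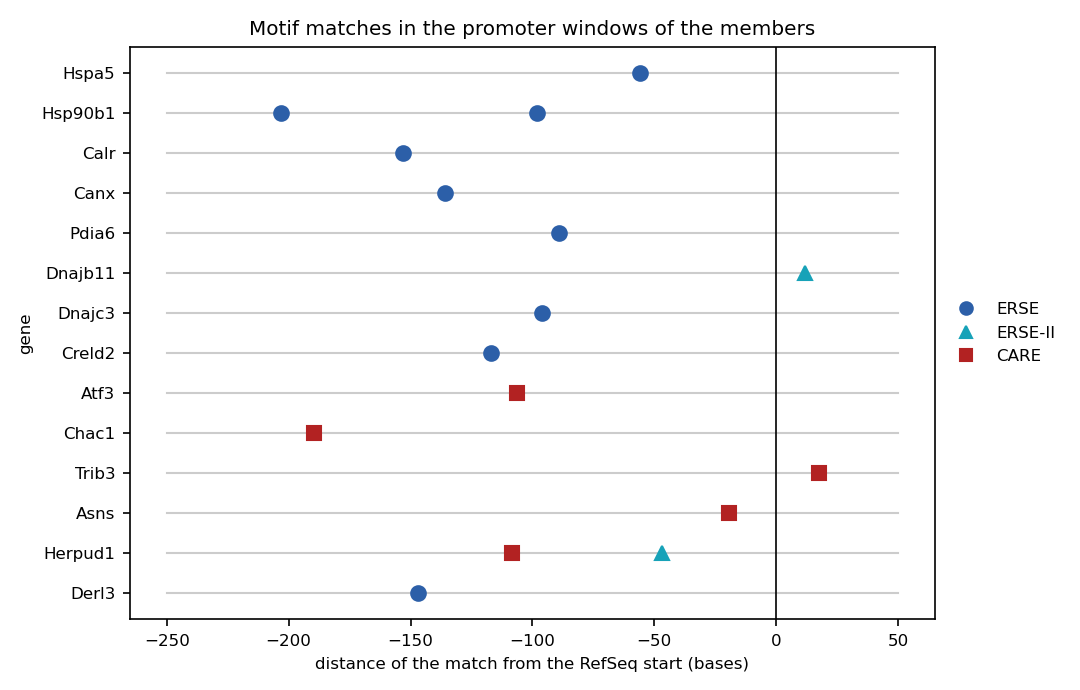
Motif matches in the 14 member windows that held one; the horizontal axis is the distance in bases from the RefSeq start, grey lines are the searched window, circles are ERSE, triangles ERSE-II and squares the CARE core. Circles are on 7 chaperones and Derl3, squares on 4 branch genes and Herpud1.

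Values are reads normalized by the authors within each table, and fold changes come from limma on log2(normalized reads + 1) over all genes of a table, so folds of low genes are understated. The libraries held 47000197 to 57397720 reads in liver and 18527017 to 19402863 in LSEC, and the members summed to 3919 to 4956 RPM (reads scaled to the library's total) in liver. In LSEC they summed to 4756 to 6831 RPM in 5 libraries and to 13167 RPM in NASH 2. LSEC libraries are numbered here by column order, since their columns carry no replicate number, and the 2 tables were normalized separately.

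A few libraries stood apart in ways that touch the members. Liver chow 3 held Jun, an immediate early gene of cell activation, at 23365 normalized reads against 1265 and 1367 in the other chow livers. The mean of 16 immediate early genes was there 0.67 above the chow mean on the log2 scale, beside 0.64, 0.29 and 0.47 in NASH 1, 2 and 3. LSEC chow 1 had the lowest immediate early genes, with a summed level of 74086 against 245191 and 256478 in the other chow LSEC and 118647 to 322204 in NASH. LSEC NASH 2 had the highest chaperones of the 6 libraries, described below. The sinusoidal markers were present in all LSEC libraries, with Pecam1 at 24073 to 28011 and Stab2 at 25860 to 80947 normalized reads, while hepatocyte markers were also present, at summed levels of 6700 to 77976 in chow and 34466 to 70436 in NASH.

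In whole liver on the NASH diet, 5 of 14 chaperones fell and 2 rose on the authors' scale. When libraries were scaled by total reads, 7 were higher and none lower, where 47.2% of all genes were higher and 5.41% lower. On the authors' scale, 4 of the 8 genes of the Atf4/Ddit3 branch rose and 1 fell. Of the 30 members, 15 passed limma at a Benjamini-Hochberg adjusted p under 0.05, against 46% of all 16703 genes. The members' share was thus close to that of the table as a whole. EdgeR also called 15, against 45.3%, with Ppp1r15a in place of Atf3. An unadjusted limma p under 0.05 was held by 19 members, against 53.8%. The 8 that rose (25% of all genes rose) were Pdia6, Sdf2l1, Eif2ak3, Ddit3, Atf3, Chac1, Trib3 and Derl3. The 7 that fell (21% of all genes fell) were Hspa5, Hsp90b1, Dnajb9, Dnajc3, Hyou1, Herpud1 and Asns. All NASH livers lay above all chow livers for 8 members (29.8% of all genes) and below them for 7 (27.3%). The median log2 fold change of the members was -0.03, beside 0.02 over all genes. In a bulk sample, fewer cells of a type and less RNA per cell cannot be told apart.

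Markers of other cell types moved with the diet in liver. Hepatocyte markers were lower in 6 of 8 cases, with summed levels of 6084900 to 6636030 in chow and 2904110 to 3333410 in NASH. Markers were higher for macrophages (7 of 8, summed 24895 to 37114 in chow and 55444 to 94396 in NASH), stellate cells and myofibroblasts (5 of 7, 22459 to 26201 and 59052 to 83417) and cholangiocytes (5 of 5, 2259 to 2925 and 18059 to 35413). They were also higher for T and NK cells (5 of 6 measured, 192 to 431 and 753 to 1091) and neutrophils (4 of 4 measured, 136 to 155 and 442 to 624). B and plasma cell markers had 1 of 9 measured lower and none higher (16375 to 19835 and 11571 to 13743), and sinusoidal markers had 1 of 8 higher and 3 lower (24093 to 28300 and 19948 to 21116). No marker was at 0 in all libraries of a tissue. Their part in the members' changes was not tested.

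The falls of chaperones in liver depended on how libraries were scaled. Dividing by total reads in place of the authors' factors moved the log2 fold change of the median gene up by 0.42, and the members called became 18 higher and 2 lower, against 47.2% and 5.41% of all genes. Every chaperone fall named here ended on that scale, with Hspa5 at 0.05 and Dnajc3 at 0.07, both of turned sign, Hsp90b1 at -0.04, Dnajb9 at -0.08 and Hyou1 at -0.00051. The falls of Asns (-1.73) and Herpud1 (-0.55, limma adjusted p = 0.04998, just under the threshold) and all 8 rises remained. Of the members not called, Canx, Pdia4, Dnajb11, Creld2, Ern1, Atf6, Atf4 and Sel1l also turned from a negative to a positive value.

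**Figure D2:**
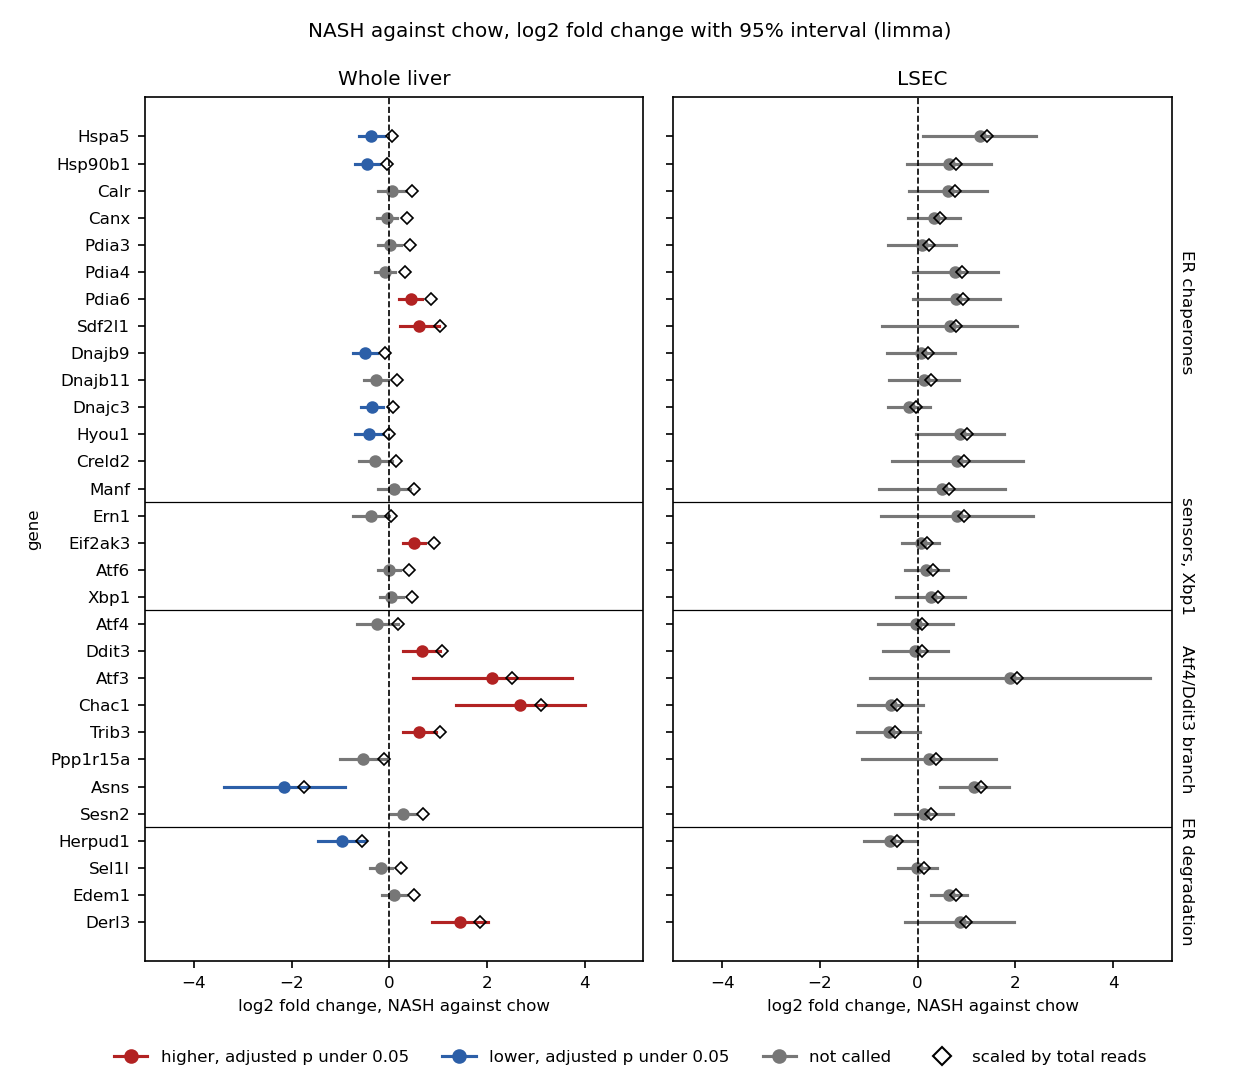
Log2 fold change of each member, NASH against chow, with its 95% interval (circles and bars, limma, 3 libraries a group) in liver and LSEC; open diamonds give the value after scaling by total reads. In liver 8 members are higher (red) and 7 lower (blue), with the blue chaperones moving to between -0.08 and 0.07 on the other scale, and in LSEC none is called.

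Among the chaperones, Bip itself was lower in liver on the authors' scale, and at 0.05 on the log2 scale after scaling by total reads. Hspa5, the ER Hsp70 that holds the sensors inactive (chr2:34771970-34777547, + strand, GRCm38), had 31288, 29711 and 27957 normalized reads in chow and 24935, 24545 and 19728 in NASH. The 3 NASH livers lay below the 3 chow livers, with a log2 fold change of -0.37 ± 0.12 (SE, n = 3 per group; limma adjusted p = 0.0264). Hsp90b1, the ER Hsp90 known as Grp94, had 36932, 36513 and 32207 in chow and 26381, 27951 and 22976 in NASH, again without overlap (-0.45 ± 0.11, limma adjusted p = 0.00907). Both were lowest in NASH 3, as were all 14 chaperones among the 3 NASH livers. The matching share of all genes is not given here. On the authors' scale, the log2 chaperone mean against chow was 0.04, -0.06 and -0.32 in NASH 1, 2 and 3. The chow livers lay at -0.05 to 0.03. The fall of the chaperone mean thus lay mainly in NASH 3. Without that library, the chaperone median log2 fold change went from -0.18 to -0.09. Hspa5 was then at -0.26 and Hsp90b1 at -0.37.

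A pair of J proteins and an exchange factor were lower too, again on the authors' scale only, with 0.07 for Dnajc3 on the other. Dnajb9, a J protein that hands Ire1 back to Bip, had 3699, 3475 and 4346 normalized reads in chow and 2680, 2960 and 2501 in NASH, a change of -0.50 ± 0.11 (limma adjusted p = 0.00408) with no overlap. Dnajc3, a J protein also known as p58IPK, had 11501, 12257 and 11743 in chow and 10093, 9853 and 8113 in NASH (-0.35 ± 0.10, limma adjusted p = 0.0190). Hyou1, the nucleotide exchange factor Grp170, had 5001, 4452 and 5126 in chow and 4019, 4033 and 2959 in NASH (-0.42 ± 0.13, limma adjusted p = 0.0223). The groups did not overlap for either. The calls of Hspa5, Dnajc3 and Hyou1 were each lost when 1 of several libraries was left out. Limma adjusted p was 0.0988, 0.0859 and 0.0663 for Hspa5 without chow 1, chow 2 or NASH 3, 0.0805 and 0.0514 for Dnajc3 without chow 2 or NASH 3, and 0.0670, 0.0612 and 0.0579 for Hyou1 without chow 1, chow 3 or NASH 3. The calls of Hsp90b1 and Dnajb9 were kept each time. Over all genes, 37.2%, 35.1%, 44.3% and 35.2% were called without chow 1, chow 2, chow 3 or NASH 3, against 46% with all libraries.

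A pair of chaperone genes went the other way. Pdia6, a disulphide isomerase that also acts on Ire1, had 6313, 6298 and 6048 normalized reads in chow and 9494, 8547 and 7318 in NASH, all NASH livers above all chow livers (0.43 ± 0.10, limma adjusted p = 0.00690). Sdf2l1, a small partner of Bip and ERdj3, had 392, 479 and 390 in chow and 849, 571 and 545 in NASH (0.62 ± 0.18, limma adjusted p = 0.0177). NASH 1 was the highest for both, and the call of Sdf2l1 was lost without chow 1 (limma adjusted p = 0.0560). The other 7 chaperones were not called and had log2 fold changes of -0.28 (Creld2) to 0.10 (Manf). After scaling by total reads 5 of them were called higher, at 0.47 (Calr), 0.36 (Canx), 0.42 (Pdia3), 0.33 (Pdia4) and 0.51 (Manf). On that scale 47.2% of all genes were called higher, and the median gene moved up by 0.42. These 5 values are thus close to the shift of the table as a whole. The lectin chaperones Calr and Canx, which bind sugars on glycoproteins, and their partner Pdia3 had values of 0.05, -0.05 and 0.01.

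Of the sensors, Perk alone was called in liver on the authors' scale, and Atf6 and Xbp1 were called higher as well after scaling by total reads. Eif2ak3, the kinase that phosphorylates eIF2alpha at the ER, had 776, 795 and 896 normalized reads in chow and 1213, 1142 and 1147 in NASH. The NASH livers were all higher and close to each other (0.51 ± 0.10, limma adjusted p = 0.00234), and the call was kept when any 1 library was left out. Ern1, the gene of Ire1, had 1309, 1157 and 1412 in chow and 830, 1324 and 892 in NASH, where NASH 2 lay among the chow values (-0.37 ± 0.17, limma adjusted p = 0.0927; without NASH 2 -0.58, limma adjusted p = 0.00558). Atf6 and Xbp1 had log2 fold changes of -0.0045 and 0.04, and 0.41 and 0.46 after scaling by total reads (limma adjusted p = 0.00545 and 0.00213). That scaling called 47.2% of all genes higher and moved the median gene up by 0.42. Gene-level reads do not tell spliced from unspliced Xbp1.

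In the branch, Ddit3, Trib3, Chac1 and Atf3 rose in liver by limma, Asns fell, and 3 genes were not called. EdgeR and DESeq2 did not call Atf3 and called Ppp1r15a lower. Ddit3, the factor Chop that is tied to cell death under lasting stress, had 256, 235 and 331 normalized reads in chow and 461, 367 and 473 in NASH, without overlap (0.67 ± 0.17, limma adjusted p = 0.00979). The Ddit3 locus on chr10 holds a pair of overlapping GENCODE entries under that name. The deposited values are not split between them, so the reads cannot be assigned to 1 of them. The liver kit also does not mark strand. Trib3, a pseudokinase that damps Atf4 and Akt signalling, had 529, 793 and 543 in chow and 939, 907 and 970 in NASH, with the NASH livers nearly equal (0.62 ± 0.15, limma adjusted p = 0.00879). Both calls were kept when any 1 library was left out.

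Chac1, an enzyme that breaks down glutathione and a marker of Atf4 activity (chr2:119351229-119354381, + strand, GRCm38), rose in liver. It had 42.7, 80.9 and 69.7 normalized reads in chow and 1239, 174 and 309 in NASH. All NASH livers were higher, and NASH 1 was far above the other NASH livers. The log2 fold change was 2.68 ± 0.59 (limma adjusted p = 0.00467), and 1.88 without NASH 1, where the call was kept (limma adjusted p = 0.00771).

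Atf3, an early factor induced by Atf4 and by many other signals, had 78.3, 90.6 and 827 normalized reads in chow and 669, 680 and 1051 in NASH. Chow 3 lay among the NASH livers, so the groups overlapped. That library also had the highest mean of the immediate early genes in liver, just above NASH 1 (0.67 and 0.64 above the chow mean on the log2 scale). The part of these genes in the result was not tested. The log2 fold change was 2.11 ± 0.73 (limma adjusted p = 0.0377). The call was lost with edgeR on recovered reads (adjusted p = 0.169), and DESeq2 and the authors' deposited table gave Atf3 no adjusted p. It was also lost without any 1 of the 5 liver libraries besides chow 3 (limma adjusted p of 0.0795 to 0.136). Without chow 3 the log2 fold change was 3.20 (limma adjusted p = 2.32e-05).

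Asns, which makes asparagine and is a standard Atf4 target (chr6:7675169-7693254, - strand, GRCm38), was the branch gene that fell. It had 1002, 841 and 223 normalized reads in chow and 249, 107 and 79.6 in NASH, with chow 3 just below NASH 1. The log2 fold change was -2.15 ± 0.55 (limma adjusted p = 0.0108), and the call was lost without NASH 3 (-1.81, limma adjusted p = 0.0580). Liver chow 3 was thus the chow library nearest to NASH for both Atf3 and Asns; without it the log2 fold change of Asns was -2.83 (limma adjusted p = 0.000791).

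The other 3 branch genes were not called by limma in liver. Atf4 had 3862, 3917 and 6432 normalized reads in chow and 4177, 3314 and 4248 in NASH (-0.24 ± 0.19, limma adjusted p = 0.316), with chow 3 the highest of the 6. Ppp1r15a, the phosphatase subunit Gadd34 that reverses eIF2alpha phosphorylation, had 728, 768 and 1353 in chow and 710, 583 and 604 in NASH (-0.53 ± 0.21, limma adjusted p = 0.0647). The NASH livers were below the chow livers for Ppp1r15a. EdgeR (adjusted p = 0.0494), DESeq2 (adjusted p = 0.02) and the authors' deposited table (adjusted p = 0.0200) called it lower. So did limma without chow 1 (-0.69, adjusted p = 0.0337). Sesn2, a stress-induced brake on mTORC1, had a value of 0.28 ± 0.12 (limma adjusted p = 0.0797).

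The degradation genes held a fall and a rise in liver. Herpud1, a scaffold of the ER degradation complex (chr8:94386438-94395377, + strand, GRCm38), had 32059, 39744 and 46767 normalized reads in chow and 28433, 15990 and 17423 in NASH. The NASH livers were all lower, NASH 1 the least so, and the log2 fold change was -0.97 ± 0.21 (limma adjusted p = 0.00487). Derl3, a derlin of the retrotranslocation channel (chr10:75893413-75895941, + strand, GRCm38), had 83.0, 77.7 and 44.1 in chow and 204, 174 and 168 in NASH, without overlap (1.45 ± 0.26, limma adjusted p = 0.00155). Both calls were kept when any 1 library was left out. Sel1l, the partner of the ubiquitin ligase Hrd1, and Edem1, a mannosidase that marks glycoproteins for disposal, were not called (-0.17 and 0.10).

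**Figure D3:**
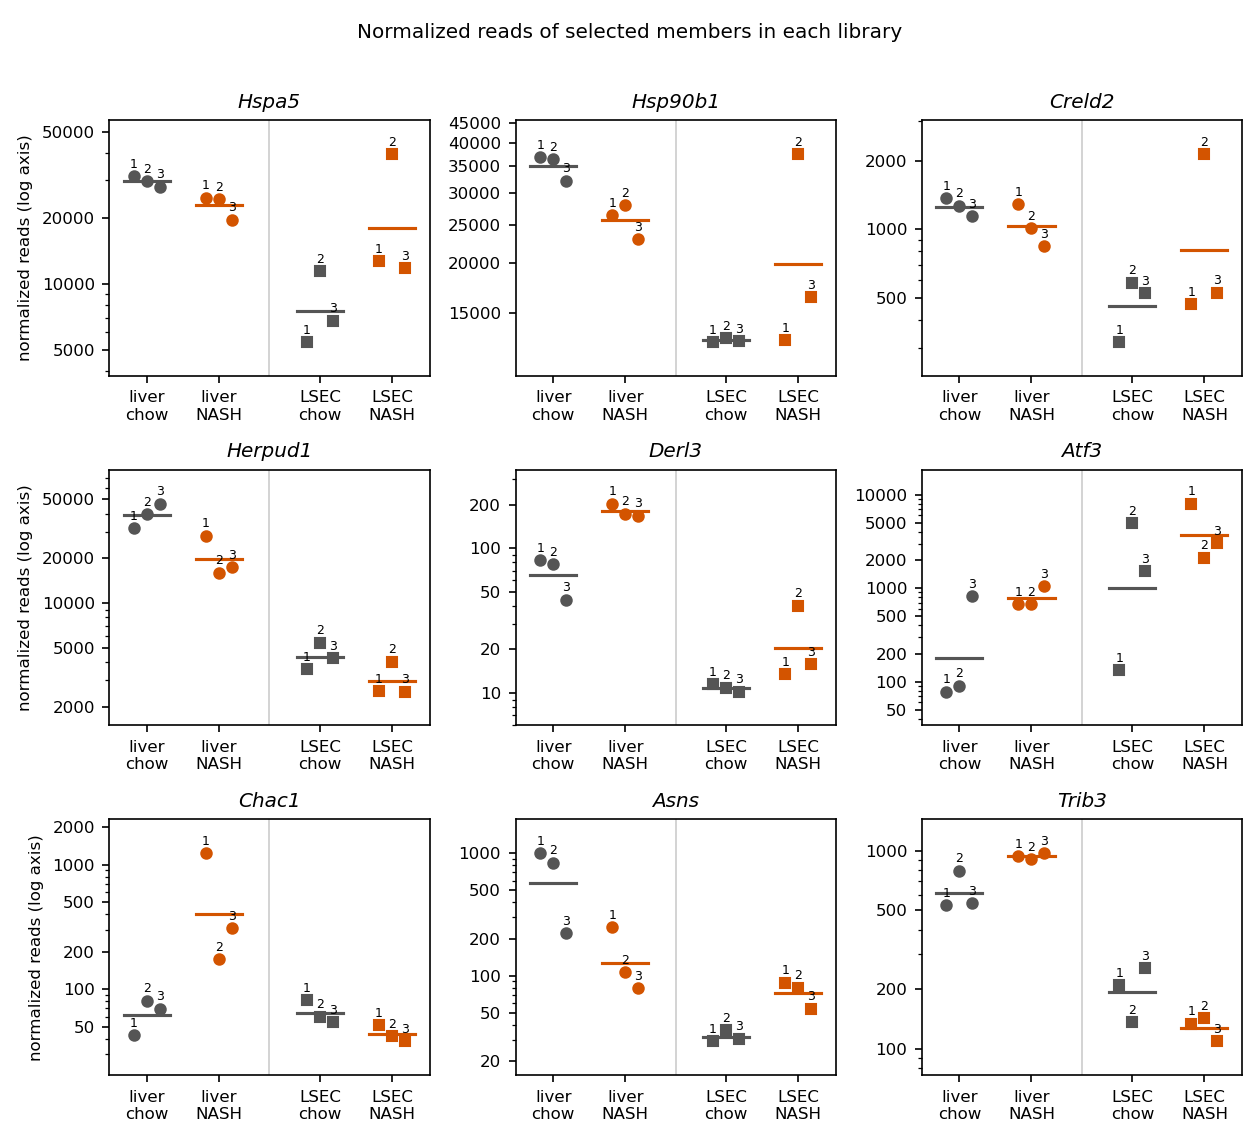
Normalized reads (log axis, scales differ between panels) of 9 members in each library, numbered 1 to 3 within a group; circles are liver, squares LSEC, and horizontal bars are group means on the log2 scale. Hspa5, Hsp90b1, Creld2 and Derl3 are highest of the LSEC libraries in NASH 2, and Atf3 in liver chow 3 lies among the NASH livers.

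In LSEC no member passed limma at an adjusted p under 0.05, against 8.11% of all 16273 genes (5.24% higher and 2.86% lower), and edgeR called none, against 7.16%. At an unadjusted limma p under 0.05 there were 4 (Hspa5, Asns, Edem1 and Herpud1), against 26% of all genes. DESeq2 on recovered reads called 3 (Hspa5, Asns and Edem1), against 17.3% of all genes, and the same 3 had an adjusted p under 0.05 in the authors' deposited table. The median log2 fold change of the members was 0.30, beside 0.00 over all genes, and 0.10 without NASH 2. Scaling by total reads moved the median gene by 0.14 in LSEC and brought 2 calls, both higher, Asns (1.30) and Edem1 (0.78), against 7.15% of all genes higher and 1.68% lower.

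The chaperones of LSEC were set apart by 1 library. All 14 were highest of the 6 libraries in NASH 2, and 11 of them were there at least 1.5 times the next highest library. Over all genes, 18.3% were highest in that library and of the 11830 genes averaging 50 or more normalized reads, 2.52% were there at least 1.5 times the next highest. The ratio of NASH 2 to the mean of the other NASH libraries had a median of 2.59 over the chaperones and ran from 1.52 (Dnajc3) to 4.65 (Sdf2l1). Over the 8 branch genes that ratio had a median of 0.91 and ran from 0.38 (Atf3) to 1.21 (Ddit3), and none of them was highest in NASH 2.

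Hspa5 had 5421, 11442 and 6794 normalized reads in chow LSEC and 12700, 39511 and 11859 in NASH LSEC. All NASH libraries were higher, the lowest of them only just above chow 2, with a log2 fold change of 1.27 ± 0.49 (limma adjusted p = 0.158) that was 0.71 without NASH 2. Creld2, an ER protein secreted under stress, had 319, 582 and 524 in chow and 467, 2153 and 526 in NASH, so that only NASH 2 was outside the chow range. Manf, a secreted ER stress factor, had 1324, 2705 and 1724 in chow and 1717, 6459 and 1573 in NASH. Sdf2l1 had 225, 373 and 229 in chow and 245, 1177 and 260 in NASH, with the same pattern. Pdia4, Pdia6 and Hyou1, like Hspa5, had all NASH libraries above all chow libraries. They were at 0.31, 0.32 and 0.38 without NASH 2, not called by limma. The groups overlapped for the other chaperones. Over the 13 chaperones besides Hspa5, log2 fold changes ran from -0.18 (Dnajc3) to 0.87 (Hyou1). Without NASH 2, the chaperone median log2 fold change in LSEC went from 0.63 to 0.10, and 5 of the 14 changed sign (Pdia3, Sdf2l1, Dnajb9, Dnajb11 and Manf).

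Other genes moved with NASH 2 as well. Xbp1 had 2109, 3044 and 2683 normalized reads in chow and 2560, 5064 and 2335 in NASH, and Derl3 had 11.5, 10.9 and 10.2 in chow and 13.5, 40.1 and 15.8 in NASH, both highest in NASH 2. All 5 cholangiocyte markers were highest there, at 2.98 to 3.42 times the mean of the other NASH libraries and with a summed level of 46882 against 10282 and 17284, while in chow LSEC the sum was 4121 to 9372. The B and plasma cell markers were lower in NASH 2, at 0.12 to 0.97 times the mean of the other NASH libraries (median 0.20). Among them, Jchain was at 89.6 and Mzb1 at 2.80 normalized reads, against 318 to 739 and 19.3 to 27.0 in the other NASH libraries. The other ER folding genes, 16 that are not members, had a median ratio of 1.17, and 16 translocation genes had 1.19. The 14 heat shock genes of the cytosol and mitochondria had a median ratio of 1.40 and a highest of 4.75, and 7 of them were highest in NASH 2. In LSEC, 6 of 8 macrophage markers (summed 7793 to 22364 in chow and 33101 to 40893 in NASH) and 3 of 7 stellate markers (13877 to 32981 and 40520 to 76537) rose with NASH, 1 of 8 sinusoidal markers rose and 2 fell, and limma called no gene of the other marker lists. DESeq2 and the authors' deposited table called all 5 cholangiocyte markers higher, and all 5 had an unadjusted limma p under 0.05. The part of other cells in the chaperone level of NASH 2 was not tested.

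**Figure D4:**
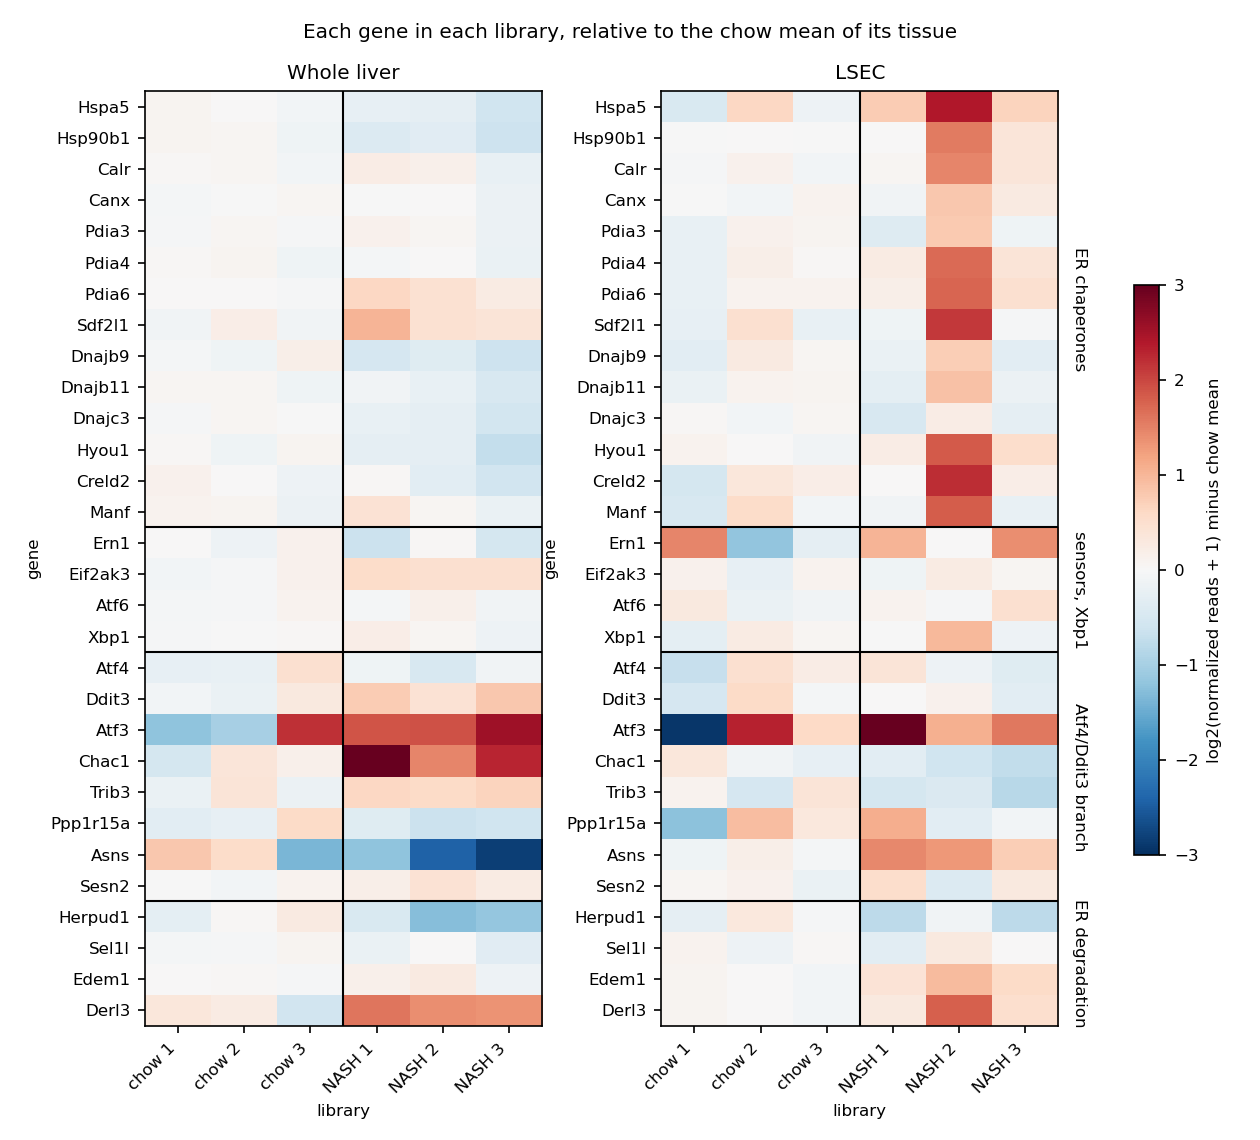
Log2(normalized reads + 1) of the 30 members in each library, minus the mean of the 3 chow libraries of that tissue; colours run from -3 to 3 and values outside are drawn at the end colour. The LSEC NASH 2 column is red for all 14 chaperones, while its branch genes are of both colours, and in liver the reds of NASH are mainly in the branch and the blues in Asns, Herpud1 and the chaperones, the last on the authors' scale only.

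Several LSEC branch genes varied widely between chow libraries. Atf3 had 133, 4976 and 1525 normalized reads in chow and 8023, 2111 and 3017 in NASH (1.88 ± 1.22, limma adjusted p = 0.373), and Ppp1r15a had 3649, 16344 and 10767 in chow and 18481, 6912 and 8156 in NASH (0.23 ± 0.59, limma adjusted p = 0.840). Chow 1 was the lowest library for both, as it was for the immediate early genes, and NASH 1 was the highest for both and for their summed level (322204). The part of the immediate early genes' level in these values was not tested. Atf4 itself had 2818, 6385 and 5299 in chow and 5944, 4138 and 3540 in NASH, and Ddit3 had 243, 511 and 329 in chow and 349, 380 and 277 in NASH, with chow 1 lowest and chow 2 highest for both. Their log2 fold changes were -0.04 ± 0.33 and -0.05 ± 0.28, of turned sign after scaling by total reads (0.10 and 0.09).

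Asns and Edem1 were the members nearest to a call in LSEC. Asns had 29.3, 35.9 and 30.7 normalized reads in chow and 87.9, 80.2 and 53.9 in NASH, all NASH libraries higher (1.16 ± 0.30, limma adjusted p = 0.0590). Edem1 had 859, 817 and 763 in chow and 1078, 1559 and 1216 in NASH, also without overlap (0.64 ± 0.16, limma adjusted p = 0.0526). Both had positive values whichever library was left out, from 1.02 to 1.37 for Asns and from 0.50 to 0.76 for Edem1. Herpud1 had 3589, 5407 and 4240 in chow and 2543, 4012 and 2525 in NASH, where NASH 2 lay inside the chow range (-0.56 ± 0.23, limma adjusted p = 0.178).

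Chac1 and Trib3, which rose in liver, had lower means in LSEC without a call. Chac1 had 81.5, 59.8 and 54.3 normalized reads in chow and 51.2, 42.0 and 38.1 in NASH, all NASH libraries below (-0.55 ± 0.29, limma adjusted p = 0.270). Trib3 had 210, 137 and 256 in chow and 134, 144 and 110 in NASH, with NASH 2 above chow 2 (-0.60 ± 0.27, limma adjusted p = 0.221). Sesn2 and the sensors Eif2ak3, Atf6 and Ern1 were not called, at 0.13, 0.06, 0.18 and 0.81. Over the 30 members, 7 had all NASH libraries above all chow libraries and 1 below, against 16.5% and 15.4% of all genes.

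The effect of NASH differed between liver and LSEC for 3 members, tested as the difference of the limma estimates over 15766 genes in both tables, of which 19.5% were called, 11.5% higher and 7.99% lower in liver. Asns differed by -3.31 ± 0.63 (SE, liver minus LSEC, limma estimates, adjusted p = 0.00249), lower with NASH in liver and with higher values in LSEC. Chac1 differed by 3.24 ± 0.65 (limma estimates, adjusted p = 0.00397) and Trib3 by 1.21 ± 0.31 (limma estimates, adjusted p = 0.0195), both higher with NASH in liver and without a call in LSEC. The calls of Asns and Chac1 were kept whichever library was left out, and that of Trib3 was lost without LSEC chow 3, NASH 1 or NASH 3. Hspa5 (-1.64, 95% interval -2.80 to -0.48), Hyou1 (-1.28, -2.20 to -0.36) and Edem1 (-0.55, -0.96 to -0.13) missed the threshold, with limma-based adjusted p of 0.0559, 0.0565 and 0.0617. Some of these differences were called when 1 library was left out (limma-based adjusted p in brackets). Hyou1 was called without LSEC NASH 2 (-0.79, 0.0168), LSEC NASH 1 (0.0360), liver NASH 1 (0.04995) or liver NASH 2 (0.0458). Hsp90b1 was called without LSEC NASH 2 (-0.64, 0.0436) or LSEC NASH 1 (0.0430), and Hspa5 without liver NASH 2 (0.0498) or LSEC chow 2 (0.0395). Edem1 was called without liver NASH 2 (0.0343) or LSEC NASH 1 (0.0446), and Ern1 without LSEC chow 1 (0.0326). With all libraries none of these genes was called, on the authors' scale or by total reads. For Atf3 the difference was 0.22 with an interval of -2.87 to 3.31, too wide to tell. On the authors' scale, the other 12 of the 15 members called in liver had limma-based adjusted p of 0.0559 to 0.974 for the difference. An effect in liver alone was thus not shown for them with all libraries on that scale. After scaling by total reads, the differences of Eif2ak3 (0.73, limma-based adjusted p = 0.0184) and Ddit3 (0.99, limma-based adjusted p = 0.0465) were called too. On the authors' scale, that of Ddit3 was called without LSEC chow 1 (0.97, limma-based adjusted p = 0.0432).

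Chaperones and branch were set beside each other in each tissue. In liver the mean log2 fold change of the 14 chaperones was -0.11 and that of the 8 branch genes 0.43 (medians -0.18 and 0.45). By limma 2 chaperones rose and 5 fell, while 4 branch genes rose and 1 fell, where 25% of all genes rose and 21% fell. EdgeR and DESeq2 did not call Atf3 and called Ppp1r15a lower. After scaling by total reads, 7 chaperones were called higher and none lower, and 5 branch genes higher and 1 lower, where 47.2% of all genes were higher and 5.41% lower, so the opposite direction of the calls was not kept. The chaperone mean minus the branch mean was -0.54, with -0.42 to -0.71 when 1 library was left out. Scaling by total reads moves all genes of a library alike, so by construction it leaves this difference all but unchanged and does not test it. By library, the mean log2 level of the chaperones stood 3.53 to 4.11 above that of the branch in chow livers and 3.15 to 3.65 in NASH livers, so chow 3 (3.53) and NASH 2 (3.65) overlapped. In LSEC the difference of means was 0.26, and -0.30 without NASH 2, with library gaps of 2.37 to 3.08 in chow and of 1.95, 4.04 and 2.78 in NASH. No p-value is given for these means, since the members were not drawn at random.

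**Figure D5:**
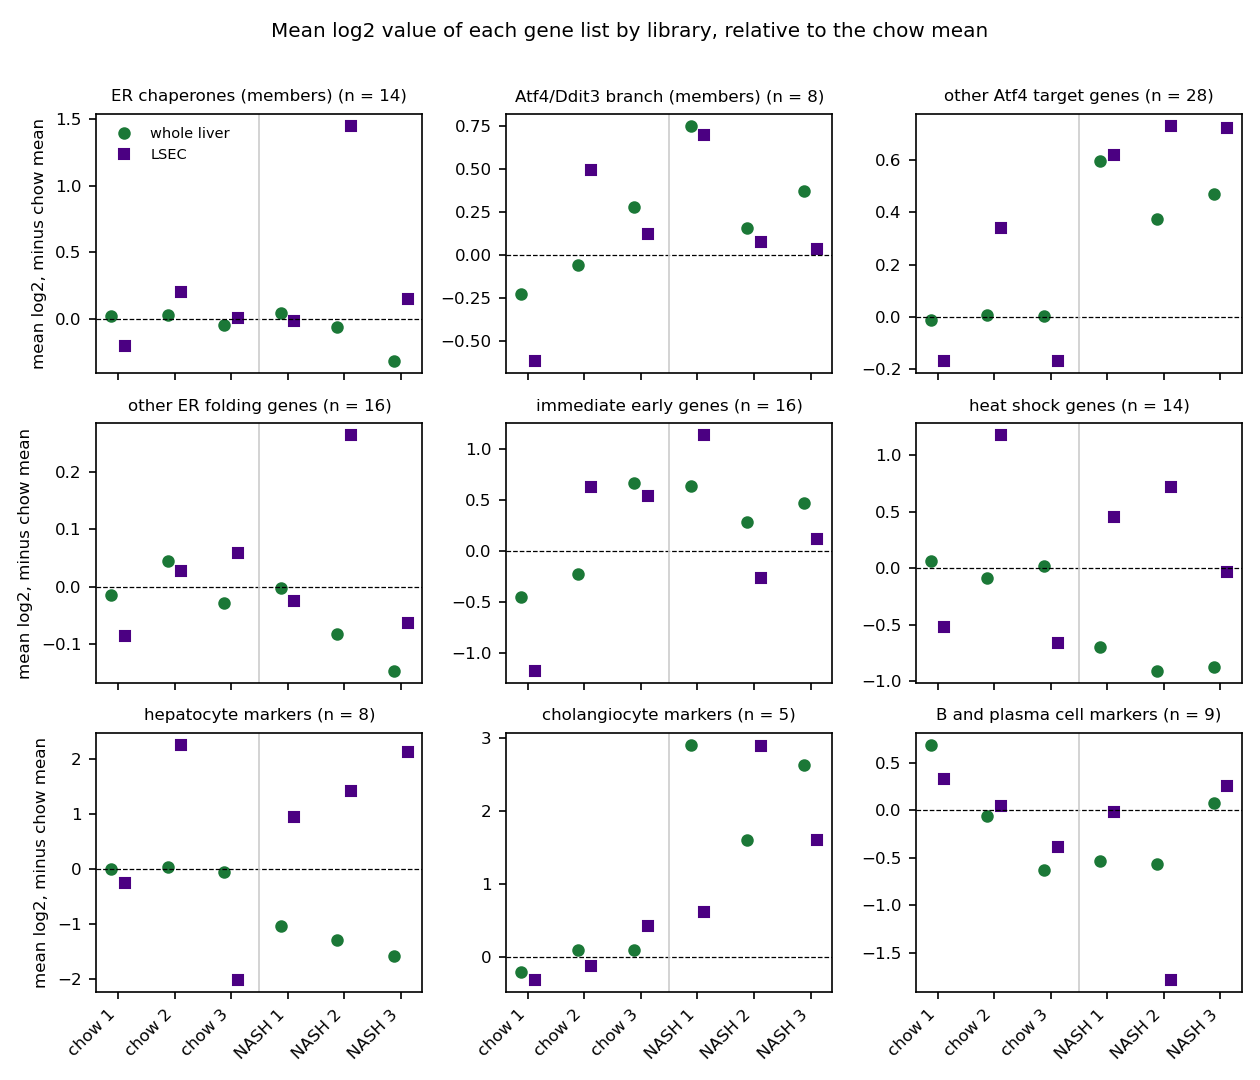
Mean log2 value of 9 gene lists in each library, minus the chow mean of the tissue (circles, whole liver; squares, LSEC; vertical scales differ). LSEC NASH 2 is high for the chaperones (1.45) and cholangiocyte markers (2.89) and low for B and plasma cell markers (-1.79), and LSEC chow 1 is low for immediate early genes (-1.18).

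Per kilobase of exon, the members spanned a wide range, and levels are compared here only within a table. In chow liver Herpud1 was the highest at 16941 ± 3153 normalized reads per kilobase (SD, n = 3), followed by Calr at 9142 ± 396, Hsp90b1 at 8734 ± 649 and Hspa5 at 7012 ± 394. Calr and Hsp90b1 did not differ beyond their spread. Chac1 (39.4) and Derl3 (34.3 ± 10.6) were the lowest, with a gap smaller than the spread of Derl3. In NASH liver Herpud1 was at 8836 ± 2918 and Calr at 9566 ± 1508, so the lead of Herpud1 was gone. In chow LSEC the order was led by Pdia3 (5533 ± 702), Calr (4585 ± 365) and Ppp1r15a (3491 ± 2166), and the lowest were Asns (11.7 ± 1.28) and Derl3 (5.45 ± 0.31).

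The other genes of the pathway were read from 6 lists that hold no member, and the immediate early genes above made a list more. Their counts stand beside the shares of all genes called by limma. These were 25% higher and 21% lower in liver, 47.2% and 5.41% there after scaling by total reads, and 5.24% and 2.86% in LSEC. In liver, 11 of 28 other Atf4 target genes rose and 6 fell, led by the mitochondrial folate enzyme Mthfd2 (2.18, limma adjusted p = 2.86e-05) and the serine enzyme Psat1 (2.82, limma adjusted p = 2.90e-05). The list held changes in both directions, with a rise also in the cystine carrier Slc7a11 (4.29), listed at 1.03 to 2.37 normalized reads in chow and 44.2 to 49.1 in NASH, and a fall in Cth (-2.87), which makes cysteine. In LSEC, 5 rose (Slc7a1, Gpt2, Aldh18a1, Psat1 and Slc7a11) and 1 fell, the amino acid carrier Slc7a5 (-0.78, limma adjusted p = 0.0118). Slc7a11 had at most 1.04 normalized reads in chow LSEC and 3.86 to 11.2 in NASH, was not called by edgeR (adjusted p = 0.0747) and had no adjusted p from DESeq2. The cationic amino acid carrier Slc7a1 was at 1.26 (limma adjusted p = 0.0196) and Psat1 at 1.71. All of the 5 but Gpt2 had also risen in liver, where Gpt2, an alanine transaminase, fell (-0.54). After scaling by total reads 18 of the 28 were called higher and 2 lower in liver.

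Other degradation genes fell in liver on the authors' scale. None of 14 other ER-associated degradation genes rose and 9 fell, with Nploc4, a cofactor of the extracting ATPase, at -0.68; on the scale of total reads 3 were called in each direction. Of 16 other ER folding genes 2 rose and 3 fell (Pdia5 at -1.11 and Dnajc10 at 0.52), against 10 higher and 1 lower on the other scale. Of 16 translocation genes 1 rose and 4 fell, with Srpr at -0.49 and Sec62 at -0.38, against 9 higher and none lower on the other scale. Among 15 other sensors, kinases and factors, 3 rose and 6 fell, with Nupr1, a stress-induced chromatin protein, at 2.54 and Creb3l3, a liver factor cut like Atf6, at -0.90, against 9 higher and 1 lower on the other scale. Of all genes, 25% rose and 21% fell, and 47.2% were higher and 5.41% lower on the other scale. Median log2 fold changes of the 4 lists were -0.33, -0.05, -0.07 and -0.08 in that order. In LSEC limma called none of the first 3 lists, where unadjusted p was under 0.05 for 1, 4 and 0 genes, edgeR called none and DESeq2 called 1, 0 and 0; in the fourth, limma called Nupr1 (1.02, adjusted p = 0.0390).

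Most heat shock genes of the cytosol and mitochondria fell in these livers. Of 14, 11 fell and 1 rose, with a median of -0.69, where 21% of all genes fell and 25% rose. After scaling by total reads 8 were still lower, against 5.41% of all genes. Bag3, an Hsp70 cofactor, was at -1.26 (limma adjusted p = 9.48e-06) and Hsph1, a cytosolic Hsp110, at -1.84 (limma adjusted p = 1.59e-05). In LSEC none was called by limma, edgeR or DESeq2, and none had an unadjusted limma p under 0.05. There the list was highest in chow 2 (1.18 above the chow mean on the log2 scale), which was also the chow library with the most hepatocyte markers. Of the immediate early genes in liver 6 of 16 rose and 1 fell, and in LSEC 2 rose (Myc at 2.33 and Klf6 at 0.81).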

How the data were processed

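Libraries were made from whole liver and from bead-isolated LSEC, 3 per diet group. The submitters' processing notes name FastQC, STAR, HTSeq, DESeq2, Seurat and build mm10, without versions, and do not say how each was used. The deposited values are a signal in normalized reads per gene, scaled by the authors within each table. The same tables hold the authors' log2 fold change and p-value columns. Dividing each column by its smallest step recovered whole reads for 100% of values within 0.01, used for depth, edgeR (4.0.16) and DESeq2 (1.42.0).

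The main test was limma (3.58.1, R 4.3.3) with a variance trend on log2(normalized reads + 1), all genes of a table and no filter, because the deposited values are not counts; calls are Benjamini-Hochberg adjusted p under 0.05. The difference between tissues used a t-test with Satterthwaite degrees of freedom on the limma estimates. Scripts were tested on simulated data. Positions come from GENCODE M21, promoters from RefSeq GRCm38.p6. Replicates of a group differed by more than sampling noise (chi-square per degree of freedom of 14.7 to 85.8).

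Every member is accounted for. Values in each library are given for members called in a tissue or in the difference, and for those the text turns on; from the other lists, up to 2 called genes with the smallest adjusted p per tissue were named, and any others were named after their values were seen. A result that this rule would name is not reported here. Members and lists were chosen with earlier results of these data known. Same-numbered liver libraries did not deviate together, so numbers do not pair them.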

Additional observations from a re-analysis of the deposited data

Results flagged for a closer look

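In 3 members the effect of the NASH diet differed between liver and LSEC by a test of the difference itself. For Asns the log2 fold change in liver minus that in LSEC was -3.31, with values lower under NASH in liver and higher in LSEC. For Chac1 it was 3.24, with all NASH livers above the chow livers and all NASH LSEC libraries below the chow LSEC. For Trib3 it was 1.21, a call that was lost without LSEC chow 3, NASH 1 or NASH 3.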

How the results depend on the processing

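In liver 15 members were called, 10 to 16 when 1 library was left out and 20 after scaling by total reads. Of all liver genes, 46% were called with all libraries and 35.1% to 44.3% when 1 was left out. After scaling by total reads, 47.2% of all genes were called higher and 5.41% lower. Both other pseudocounts and a filter on low values each gave the same 15. EdgeR and DESeq2 also gave 15, with Ppp1r15a in place of Atf3. The replicate block gave 16, adding Dnajb11 (-0.26) and changing no other call. Same-numbered libraries did not deviate together (correlations of deviations 0.0043, -0.00099 and 0.038), which with 3 libraries a group cannot exclude pairing. No paired fit was made in LSEC, whose columns carry no numbers. LSEC gave 0 calls when any 1 library was left out and with the other alternatives, except scaling by total reads (2) and DESeq2 (3). Of all LSEC genes, 8.11% were called with all libraries and 0.762% to 7.2% when 1 was left out. The difference between tissues was called for 2 to 6 members when 1 library was left out. After scaling by total reads it was called for 5, namely Eif2ak3, Ddit3, Chac1, Trib3 and Asns. The chaperone mean minus the branch mean ran from -0.71 to -0.42 in liver and from -0.30 to 0.74 in LSEC when 1 library was left out.

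Log2 fold changes of turned sign after scaling by total reads were Atf4 0.17, Atf6 0.41, Canx 0.36, Creld2 0.13, Dnajb11 0.15, Dnajc3 0.071, Ern1 0.041, Hspa5 0.048, Pdia4 0.33, Sel1l 0.24 in liver and Atf4 0.095, Ddit3 0.087, Sel1l 0.13 in LSEC. The cause of the others was not tested: Atf6 was at 0.0057 with edgeR in liver, and Sel1l in LSEC at 0.011 with edgeR, 0.011 with DESeq2 and 0.032 with hepatocyte markers as a covariate. Leaving out 1 library turned the sign in liver of members with these ranges: Pdia3 -0.052 to 0.095, Atf6 -0.089 to 0.052, Calr -0.030 to 0.19, Manf -0.070 to 0.25, Xbp1 -0.046 to 0.14, Canx -0.088 to 0.0037. In LSEC the ranges were Dnajb9 -0.26 to 0.27, Pdia3 -0.26 to 0.33, Ppp1r15a -0.39 to 0.69, Sel1l -0.15 to 0.15, Atf4 -0.39 to 0.20, Ddit3 -0.30 to 0.23, Eif2ak3 -0.060 to 0.16, Sesn2 -0.066 to 0.40, Dnajb11 -0.24 to 0.35, Manf -0.16 to 0.86, Sdf2l1 -0.084 to 1.04, Xbp1 -0.079 to 0.48. None of the members in these ranges was called by limma in its tissue.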
